A study of Mus musculus with 9 samples.

Results

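Lysosomal and autophagy genes, 38 in all, were followed in RNA from the substantia nigra of mice given the toxin MPTP, with or without access to a running wheel. They were taken by symbol from the 55335 genes of a deposited table of FPKM (fragments per kilobase of transcript, scaled to the size of the library, so levels of genes can be compared per length). All 38 had a mean of at least 0.5 FPKM over the 9 libraries and were among the 15997 genes tested. By role they are 9 proteases, 11 glycosidases, lipases and related hydrolases, 2 precursors of small lysosomal proteins and 8 membrane and transport proteins. The rest are 3 parts of the proton pump, 3 autophagy proteins and 2 transcription factors. The 11 include the sulfatase Sgsh and the ceramidase Asah1 and are called glycosidases and lipases here.

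The MPTP + PE group, called running mice here, was injected with MPTP at 20 mg/kg with 2 injections a week over 5 weeks and had 2 months of voluntary wheel running that began after the first injection. The MPTP group had the same injections and no wheel. The vehicle group had saline on the same schedule. Each group gave 3 libraries, from substantia nigra of 3 mice per group (strain, sex and age: not given in the sources used here). No group ran without MPTP, so running mice differ from vehicle mice in the toxin and the wheel together.

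The lysosome is the acidic compartment in which proteins, glycans and lipids that arrive by endocytosis or autophagy are broken down. Its lumen is held acidic by a proton-pumping ATPase, its enzymes are hydrolases that work at that acidity, and autophagy delivers worn proteins and organelles in double-membraned vesicles. Inherited loss of many of these enzymes gives storage diseases of the brain. In brain, microglia are rich in cathepsins, while the proton pump also acidifies synaptic vesicles.

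Depth, estimated from the spacing of low values, was 22000000 to 26700000 fragments per library, and FPKM summed to 318416 to 347524. The labelled region was checked against 7 dopaminergic markers. Their summed FPKM averaged 60.3 in running mice, 63.1 in MPTP mice and 58.0 in vehicle mice. Of the 6 tested, 3 had a log2 fold change of MPTP over vehicle above 0 and 3 below 0 (median 0.02). Th, the rate-limiting enzyme of dopamine synthesis, stood at 2.66 to 6.69 FPKM in running mice, 1.64 to 12.5 FPKM in MPTP mice and 2.97 to 15.6 FPKM in vehicle mice. Slc6a3, the dopamine transporter, was listed at 0 in running replicate 2 and reached 14.4 FPKM in MPTP replicate 3, and Pitx3 was listed at 0 in several libraries, so dopaminergic markers varied widely within each group. Marker genes of the choroid plexus, which is no part of the substantia nigra, summed to 21.2 to 948 FPKM in running mice, 954 to 2067 FPKM in MPTP mice and 37.5 to 341 FPKM in vehicle mice. In whole tissue, fewer cells of a type and less RNA per cell cannot be told apart.

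Many lysosomal genes carry in their promoters a palindromic site for the transcription factors TFEB and TFE3, the CLEAR element. RefSeq promoter windows (GRCm38.p6, 250 bases before to 50 bases after the annotated start) were available for 33 of the 38 genes. The core TCACGTG, read on either strand (so that CACGTGA counts as well), was present in 11 of these 33 genes, 33.3%. It was present in 18.1% of 94 other lysosome and autophagy genes with a window, and in 4.29% of all 27025 genes with one. The shorter CACGTG, an E-box, was present in 36.4% of the 33 genes against 8.09% of all genes, and the palindrome TCACGTGA in 18.2% against 1.12%. The same palindrome with a G before it and a C after it was present in 0% of the 33 genes. Its share was 2.13% among the 94 other lysosome and autophagy genes and 0.37% among all genes, so only the shorter forms were more frequent in the members. A match describes these letters and is no proof of a bound site.

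The windows of Ctsd, the member with the smallest p in the comparison of MPTP with vehicle, and of Lamp1, which held the most matches, are shown 5′ to 3′ on the strand of the gene, with each TCACGTG or CACGTGA, or both overlapping as TCACGTGA, in capitals. The window of Ctsd is chr7:142387778-142388077 on the minus strand and that of Lamp1 is chr8:13158911-13159210 on the plus strand. Lamp1 held 4 matches and Ctsd 2.
Ctsd: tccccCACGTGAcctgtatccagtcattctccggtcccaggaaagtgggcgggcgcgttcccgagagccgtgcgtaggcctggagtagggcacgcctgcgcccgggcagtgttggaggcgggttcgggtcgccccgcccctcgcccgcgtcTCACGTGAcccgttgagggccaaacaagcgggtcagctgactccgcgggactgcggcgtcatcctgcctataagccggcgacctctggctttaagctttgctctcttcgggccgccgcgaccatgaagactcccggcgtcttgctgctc
Lamp1: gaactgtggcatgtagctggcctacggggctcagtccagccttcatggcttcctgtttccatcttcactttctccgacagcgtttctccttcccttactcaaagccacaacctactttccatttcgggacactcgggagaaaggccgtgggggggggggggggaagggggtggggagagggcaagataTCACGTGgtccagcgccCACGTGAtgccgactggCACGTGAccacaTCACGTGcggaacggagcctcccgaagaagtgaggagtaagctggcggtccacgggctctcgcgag

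The other 9 genes with the core are Atp6v0d1, Atp6v1a, Ctsa, Gaa, Gla, Glb1, Mcoln1, Naglu and Sgsh. For 6 of them, spread over the pump, the enzymes and the membrane proteins, the first match is shown with 10 bases on either side.
Atp6v1a, chr16:44139374-44139401 on the minus strand: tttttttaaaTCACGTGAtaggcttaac
Atp6v0d1, chr8:105566051-105566078 on the minus strand: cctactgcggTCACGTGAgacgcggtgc
Ctsa, chr2:164833750-164833777 on the plus strand: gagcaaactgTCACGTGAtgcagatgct
Glb1, chr9:114401019-114401045 on the plus strand: tgcttctgagTCACGTGgcctacagag
Mcoln1, chr8:3500437-3500463 on the plus strand: gtcgcgcttgTCACGTGttcagttcag
Sgsh, chr11:119355523-119355549 on the minus strand: gcctgccgtgCACGTGAccgtggggag
The match of Atp6v0d1 began 4 bases before the annotated start, and that of Atp6v1a 132 bases before it.

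Levels of the members spanned 1.49 FPKM (Tfeb) to 486 FPKM (Psap, rank 41 of the genes tested) as means over all 9 libraries. After Psap, which encodes the precursor of the saposins that help enzymes act on sphingolipids, came the membrane glycoprotein Lamp1 (157 FPKM), the aspartic protease Ctsd (155 FPKM) and the autophagy receptor Sqstm1 (109 FPKM). The median coefficient of variation of a member within a group was 7.62% in running mice, 7.16% in MPTP mice and 7.91% in vehicle mice. For the 12379 tested genes in the same range of levels it was 11.4% in running mice, 12.1% in MPTP mice and 10.47% in vehicle mice. The most variable members were Ctsk, a cathepsin best known from bone (34.5% in vehicle mice), and Gaa, which degrades glycogen (27.8% in MPTP mice). Gaa stood at 44.5, 57.1 and 59.97 FPKM in running mice, 60.4, 40.7 and 72.7 FPKM in MPTP mice and 69.6, 56.6 and 57.1 FPKM in vehicle mice, so its groups overlapped fully. The steadiest in MPTP mice was the acid ceramidase Asah1, at 18.5 ± 1.25 FPKM in running mice, 20.0 ± 0.0793 FPKM in MPTP mice and 19.1 ± 0.864 FPKM in vehicle mice (SD, n = 3 each). The members summed to 1578, 1627 and 1614 FPKM in running mice, 1659, 1743 and 1686 FPKM in MPTP mice and 1632, 1590 and 1553 FPKM in vehicle mice. All 3 MPTP sums stood above the other 6, but the FPKM of all genes also summed to more in MPTP libraries (326614 to 347524) than in vehicle libraries (318416 to 319431). As a share of the FPKM outside the mitochondrial genome, the members made up 0.662% to 0.701% in running mice, 0.719% to 0.748% in MPTP mice and 0.702% to 0.729% in vehicle mice. MPTP and vehicle thus overlapped on that scale. Every running library lay below both, though only narrowly below vehicle (0.7010% against 0.7020%), while the raw sums of running and vehicle mice overlapped. Psap alone made up 27.5% to 31.0% of each library's sum over the members.

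**Figure D1:**
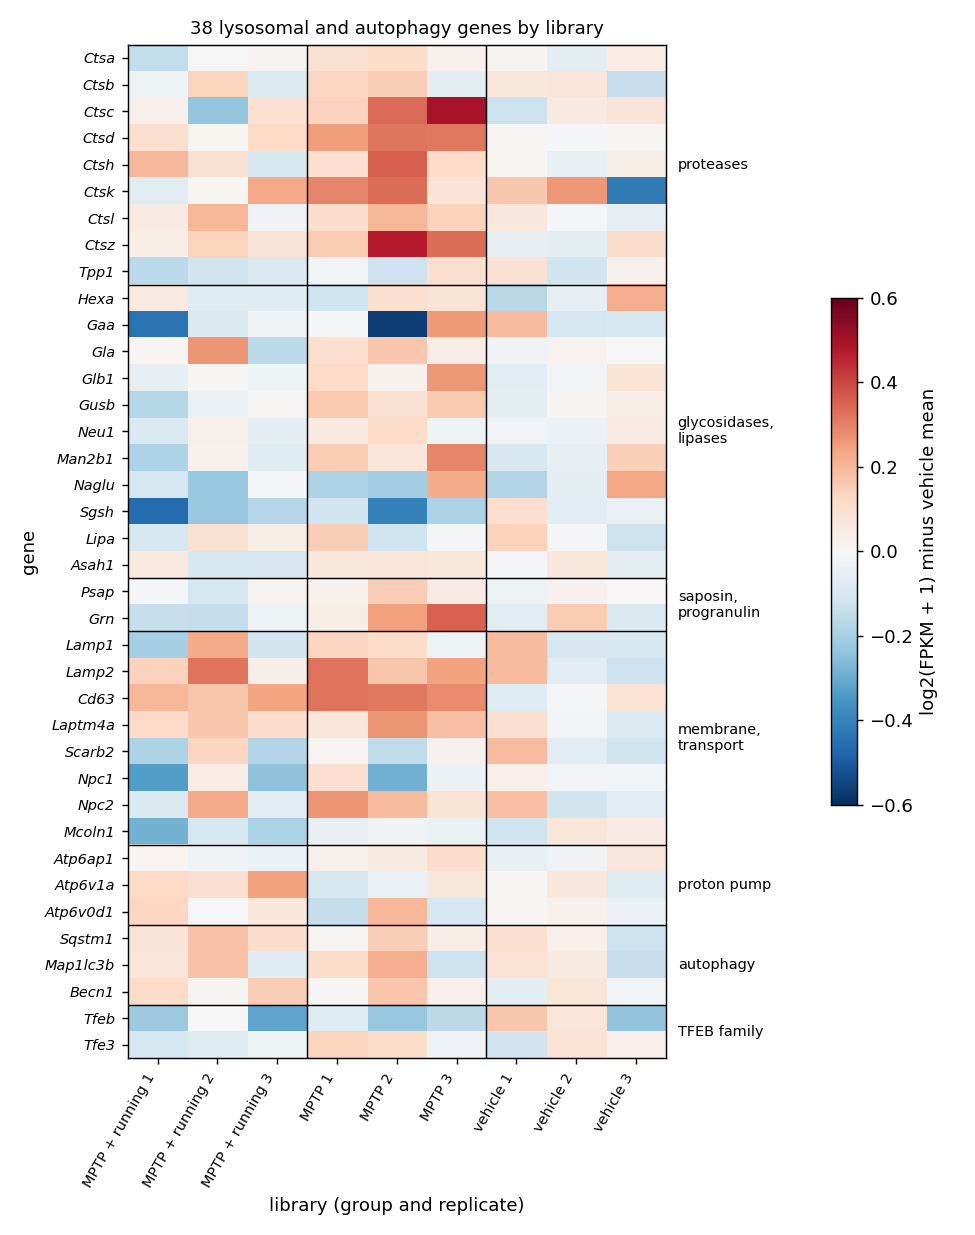
Colour gives log2(FPKM + 1) of each of the 38 genes (rows, by role) in each of the 9 libraries (columns) minus the mean of the 3 vehicle libraries. The rows of Ctsc, Ctsd, Ctsz and Cd63 are red in the 3 MPTP libraries, the row of Sgsh is blue in running and MPTP mice, and most cells of the proton pump and autophagy rows are pale.

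MPTP was compared with vehicle to ask which members differed with the toxin alone. The proteases Ctsd, Ctsz and Ctsc and the tetraspanin Cd63 had the smallest p, with mean FPKM 23.1% to 41.0% above vehicle, and the median log2 fold change was −0.01 over the 3 proton pump members and 0.07 over the 3 autophagy members. None of the 38 members passed the test (limma on log2(FPKM + 1), Benjamini-Hochberg over all genes tested, threshold 0.05, smallest adjusted p = 0.682), while 2 of the 15997 genes did (0.0125%). At an unadjusted p under 0.05 there were 4 members, all higher in MPTP mice, against 4.09% of all genes (2.61% higher and 1.48% lower). In 9 members the lowest MPTP library was above the highest vehicle library, and in 1 the order was reversed, against 5.2% and 4.23% of all genes. Of the 38 members 28 had a log2 fold change above 0 and 10 below 0, against 48.1% and 51.8% of all genes, and the median was 0.07, against −0.006 over all genes. With values rescaled to the same sum outside the mitochondrial genome, 25 were above 0 and the median was 0.01, against −0.05 over all genes. Without MPTP replicate 1, 7 members had an unadjusted p under 0.05.

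Ctsd (ENSMUSG00000007891, chr7:142375911-142388038, GRCm38 as are all positions of genes here), the main aspartic protease of the lysosome, stood at 151, 143 and 154 FPKM in running mice, 169, 177 and 177 FPKM in MPTP mice and 142, 140 and 142 FPKM in vehicle mice. The MPTP libraries lay above all others and the vehicle libraries below all others. The mean was 174 ± 4.75 FPKM in MPTP mice and 142 ± 1.13 FPKM in vehicle mice (SD, n = 3 each). This is a log2 fold change of 0.30 (SE 0.07) with unadjusted p = 0.00203 and limma adjusted p = 0.682. Ctsd shares 808 exonic bases with Gm49369 on the same strand, and that gene was listed at 0 in 8 of 9 libraries, so its level also depends on how shared reads were assigned.

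Ctsz (chr2:174427493-174439039), a cysteine carboxypeptidase, stood at 21.9, 23.5 and 22.5 FPKM in running mice, 23.7, 29.8 and 27.1 FPKM in MPTP mice and 20.5, 20.5 and 22.9 FPKM in vehicle mice. MPTP and vehicle did not overlap, though the lowest MPTP library was close to the highest vehicle library. MPTP over vehicle gave a log2 fold change of 0.32 (SE 0.10, unadjusted p = 0.0102, limma adjusted p = 0.991). Ctsc (chr7:88278085-88310888), which activates the granule serine proteases of immune cells, was a low gene at 1.69, 1.25 and 1.82 FPKM in running mice, 1.90, 2.34 and 2.72 FPKM in MPTP mice and 1.41, 1.74 and 1.79 FPKM in vehicle mice. Its 3 MPTP values were the highest of the 9. The log2 fold change over vehicle was 0.32 (SE 0.13, unadjusted p = 0.0330, limma adjusted p = 0.991), while the ratio of mean FPKM was 1.41, since the added 1 FPKM understates differences of low genes.

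Of the 9 proteases, 8 had a log2 fold change above 0 in MPTP over vehicle, with a median of 0.19, and in 5 (Ctsc, Ctsd, Ctsh, Ctsl and Ctsz) the groups did not overlap. Ctsb, Ctsl, Ctsh and Ctsk are cysteine cathepsins too. Ctsh averaged 2.33 ± 0.343 FPKM in MPTP mice and 1.91 ± 0.0846 FPKM in vehicle mice, and Ctsl 12.3 ± 0.451 FPKM in MPTP mice and 11.01 ± 0.469 FPKM in vehicle mice (SD, n = 3 each). Tpp1, the tripeptidyl peptidase lost in a childhood form of neuronal ceroid lipofuscinosis, was the 1 protease below 0, at 12.4 ± 1.02 FPKM in MPTP mice and 12.5 ± 0.985 FPKM in vehicle mice. Ctsa, the carboxypeptidase that shields β-galactosidase and the sialidase, and Ctsb, at 87.8 ± 6.84 FPKM in MPTP mice and 83.5 ± 6.88 FPKM in vehicle mice, had log2 fold changes of 0.08 and 0.07. The count of 8 of 9 was the same under both other scalings.

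**Figure D2:**
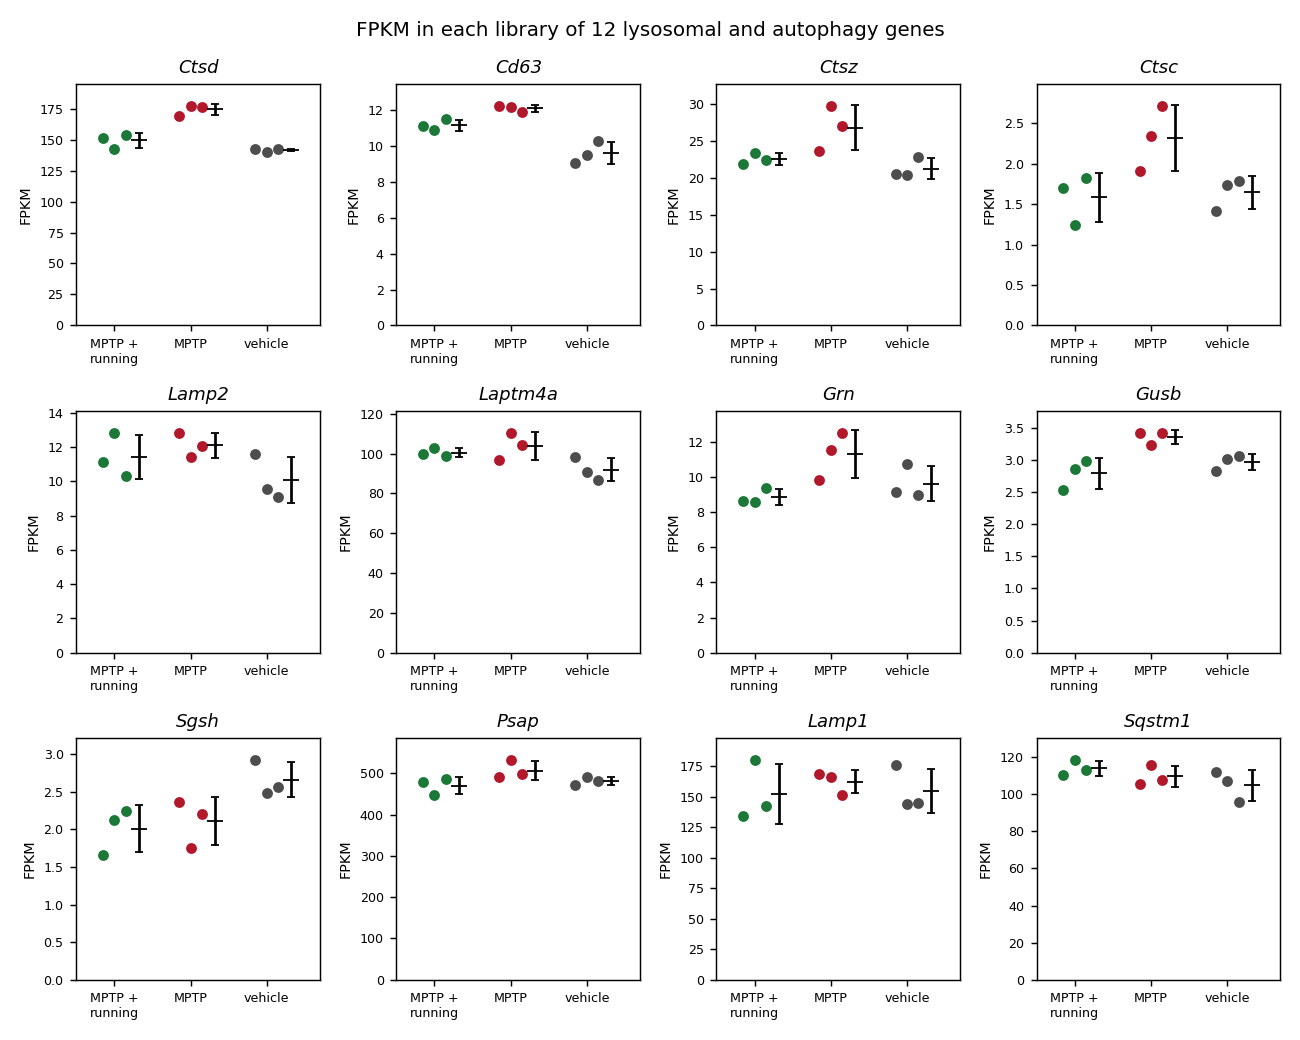
Points give FPKM in each library of 12 genes, with the mean and SD of the 3 libraries to the right of each group and every axis starting at 0. MPTP libraries lie above all vehicle libraries for Ctsd, Cd63, Ctsz, Ctsc, Gusb and Psap, and above all running libraries for Ctsd, Cd63, Ctsz, Ctsc, Grn, Gusb and Psap.

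Among the glycosidases and lipases, 8 of 11 had a log2 fold change of MPTP over vehicle above 0, with a median of 0.04. After rescaling, which lowered the median of all genes as well, 5 of 11 were above 0, and the median lay 0.04 above that of all genes, against 0.05 above it before rescaling. Gla, the α-galactosidase that cleaves globotriaosylceramide, and Gusb, the β-glucuronidase, had no overlap, with MPTP above vehicle. Sgsh (chr11:119343425-119355536), a sulfatase of heparan sulfate, was the member with the reverse order, at 1.66, 2.12 and 2.24 FPKM in running mice, 2.37, 1.75 and 2.20 FPKM in MPTP mice and 2.92, 2.49 and 2.56 FPKM in vehicle mice. Every vehicle library lay above the other 6, and the log2 fold change of MPTP over vehicle was −0.24 (SE 0.11, unadjusted p = 0.0671, limma adjusted p = 0.991). Hexa, a subunit of β-hexosaminidase, the sialidase Neu1 and the acid lipase Lipa had log2 fold changes of MPTP over vehicle of 0.02, 0.04 and 0.01, with overlapping groups. Naglu, which also degrades heparan sulfate, had overlapping groups, at 2.37 ± 0.590 FPKM in MPTP mice and 2.497 ± 0.516 FPKM in vehicle mice (SD, n = 3 each).

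Among membrane proteins Cd63 (chr10:128900989-128912822), a tetraspanin of late endosomes and exosomes, stood at 11.1, 10.9 and 11.5 FPKM in running mice, 12.3, 12.2 and 11.9 FPKM in MPTP mice and 9.05, 9.49 and 10.3 FPKM in vehicle mice. The 3 groups did not overlap, with MPTP highest and vehicle lowest. MPTP over vehicle gave 0.31 on the log2 scale (SE 0.07, unadjusted p = 0.00243, limma adjusted p = 0.720). Lamp2 (chrX:38401357-38456454), of which a splice form is the receptor of chaperone-mediated autophagy, stood at 11.1, 12.8 and 10.3 FPKM in running mice, 12.8, 11.4 and 12.1 FPKM in MPTP mice and 11.6, 9.58 and 9.10 FPKM in vehicle mice. Vehicle replicate 1 overlapped the MPTP range, and the log2 fold change was 0.24 (SE 0.11, unadjusted p = 0.0576, limma adjusted p = 0.991).

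Laptm4a (chr12:8921664-8938742), a small transmembrane protein of lysosomes, stood at 99.7, 103 and 99.0 FPKM in running mice, 96.7, 110 and 104 FPKM in MPTP mice and 98.2, 91.0 and 86.8 FPKM in vehicle mice, with MPTP and vehicle overlapping (a log2 fold change of 0.17, SE 0.08, unadjusted p = 0.0645, limma adjusted p = 0.991). Lamp1 (chr8:13159161-13175338) stood at 134, 180 and 143 FPKM in running mice, 169, 167 and 152 FPKM in MPTP mice and 176, 144 and 145 FPKM in vehicle mice. Its spread within running and vehicle mice exceeded any difference of means (log2 fold change of MPTP over vehicle 0.07, SE 0.13). The other membrane and transport proteins were Scarb2, an abundant lysosomal membrane glycoprotein, Npc1 and Npc2, which hand on cholesterol, and the calcium channel Mcoln1. Their groups overlapped in this comparison, with log2 fold changes from −0.08 (Npc1) to 0.18 (Npc2).

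Psap (chr10:60277627-60302597), by far the most abundant member, stood at 478, 447 and 486 FPKM in running mice, 490.4, 532 and 498 FPKM in MPTP mice and 472, 490.1 and 482 FPKM in vehicle mice. The lowest MPTP library was barely above the highest vehicle library (log2 fold change over vehicle 0.07, SE 0.07, limma adjusted p = 0.991), and the sign turned under quantile normalization (−0.12). Sqstm1 (chr11:50199366-50210827), the receptor that brings ubiquitinated cargo to autophagosomes, stood at 110, 118 and 113 FPKM in running mice, 105, 116 and 107 FPKM in MPTP mice and 112, 107 and 95.7 FPKM in vehicle mice. All 3 groups overlapped, and its log2 fold change of MPTP over vehicle was 0.06 (SE 0.08), or −0.001 under quantile normalization. Map1lc3b, the autophagosome coat protein, and Becn1, of the lipid kinase complex that starts autophagosomes, had log2 fold changes of 0.07 each with overlapping groups.

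For the proton pump and the regulators, MPTP and vehicle mice overlapped. Atp6v1a, the catalytic subunit, averaged 72.3 ± 4.31 FPKM in MPTP mice and 73.4 ± 3.49 FPKM in vehicle mice (SD, n = 3 each). Atp6v0d1, of the membrane sector, averaged 87.0 ± 11.7 FPKM in MPTP mice and 87.5 ± 1.996 FPKM in vehicle mice. Tfeb, a master regulator of lysosomal genes, averaged 1.41 ± 0.129 FPKM in MPTP mice and 1.69 ± 0.374 FPKM in vehicle mice, and Tfe3 averaged 3.34 ± 0.247 FPKM in MPTP mice and 3.12 ± 0.293 FPKM in vehicle mice.

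MPTP with running was compared with MPTP alone to ask which members differed with running in mice given the toxin. This comparison shares the MPTP libraries with the one before, so high MPTP values enter both. Lower values in running mice were spread over the proteases, the glycosidases and lipases, and the membrane and transport proteins. The pump subunits Atp6v1a and Atp6v0d1 averaged higher. None of the 38 members passed the test (limma adjusted p of 0.99988 or more), nor did any of the 15997 genes (0%). At an unadjusted p under 0.05 there were 6 members, all lower in running mice (Ctsd, Grn, Ctsc, Gusb, Man2b1 and Ctsz), against 3.99% of all genes (2.89% lower and 1.11% higher). In 14 members the highest running library was below the lowest MPTP library, and in 1, Atp6v1a, the order was reversed, against 5.36% and 2.66% of all genes. Of the 38 members 5 had a log2 fold change above 0 and 33 below 0, against 45.7% and 54.3% of all genes, and the median was −0.09, against −0.01 over all genes. The count of 6 was 2 (of which 1 higher) without MPTP replicate 3 and 3 without running replicate 1.

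Ctsd averaged 149 ± 5.93 FPKM in running mice and 174 ± 4.75 FPKM in MPTP mice (SD, n = 3 each), a difference of −14.3%. On the log2 scale this is −0.22 (SE 0.07, unadjusted p = 0.0106, limma adjusted p = 0.99988). Grn (chr11:102430315-102437048), which encodes progranulin, a secreted and lysosomal protein whose loss causes frontotemporal dementia, stood at 8.64, 8.61 and 9.41 FPKM in running mice, 9.86, 11.6 and 12.5 FPKM in MPTP mice and 9.15, 10.8 and 8.97 FPKM in vehicle mice. Running and MPTP did not overlap, and vehicle libraries lay in the range of both. Running over MPTP gave a log2 fold change of −0.31 (SE 0.11, unadjusted p = 0.0173, limma adjusted p = 0.99988).

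Ctsc had the largest log2 fold change of running over MPTP among the members, −0.36 (SE 0.13, unadjusted p = 0.0208, limma adjusted p = 0.99988). It averaged 1.59 ± 0.301 FPKM in running mice and 2.32 ± 0.407 FPKM in MPTP mice (SD, n = 3 each). Gusb (chr5:129989011-130003049) stood at 2.53, 2.87 and 2.99 FPKM in running mice, 3.42, 3.23 and 3.43 FPKM in MPTP mice and 2.83, 3.01 and 3.07 FPKM in vehicle mice. The MPTP libraries were the highest 3 of the 9, and the log2 fold change of running over MPTP was −0.20 (SE 0.08, unadjusted p = 0.0322, limma adjusted p = 0.99988). Man2b1, the lysosomal α-mannosidase, averaged 4.63 ± 0.413 FPKM in running mice and 5.70 ± 0.519 FPKM in MPTP mice, and Ctsz averaged 22.6 ± 0.805 FPKM in running mice and 26.9 ± 3.07 FPKM in MPTP mice.

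By role, all 9 proteases had a log2 fold change of running over MPTP below 0 (median −0.13). So had 10 of 11 glycosidases and lipases (median −0.08, and all 11 after rescaling). Both Psap and Grn and all 8 membrane and transport proteins (median −0.10) were below 0 as well. Besides those named, Ctsa, Glb1, Asah1, Cd63, Mcoln1, Psap, Atp6ap1 and Tfe3 had no overlap either, with running below MPTP. Atp6ap1, an accessory subunit of the pump, averaged 52.0 ± 0.924 FPKM in running mice and 55.1 ± 1.60 FPKM in MPTP mice. Glb1, the acid β-galactosidase, averaged 6.88 ± 0.152 FPKM in running mice and 7.80 ± 0.728 FPKM in MPTP mice, and Mcoln1 averaged 6.12 ± 0.444 FPKM in running mice and 6.94 ± 0.0674 FPKM in MPTP mice (SD, n = 3 each). Atp6v1a went the other way, at 81.7 ± 4.51 FPKM in running mice and 72.3 ± 4.31 FPKM in MPTP mice (a log2 fold change of 0.17, SE 0.08, unadjusted p = 0.0617, limma adjusted p = 0.99988). Of the 3 autophagy members, 2 were above 0 and 1 below, within 0.06 of 0.

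**Figure D3:**
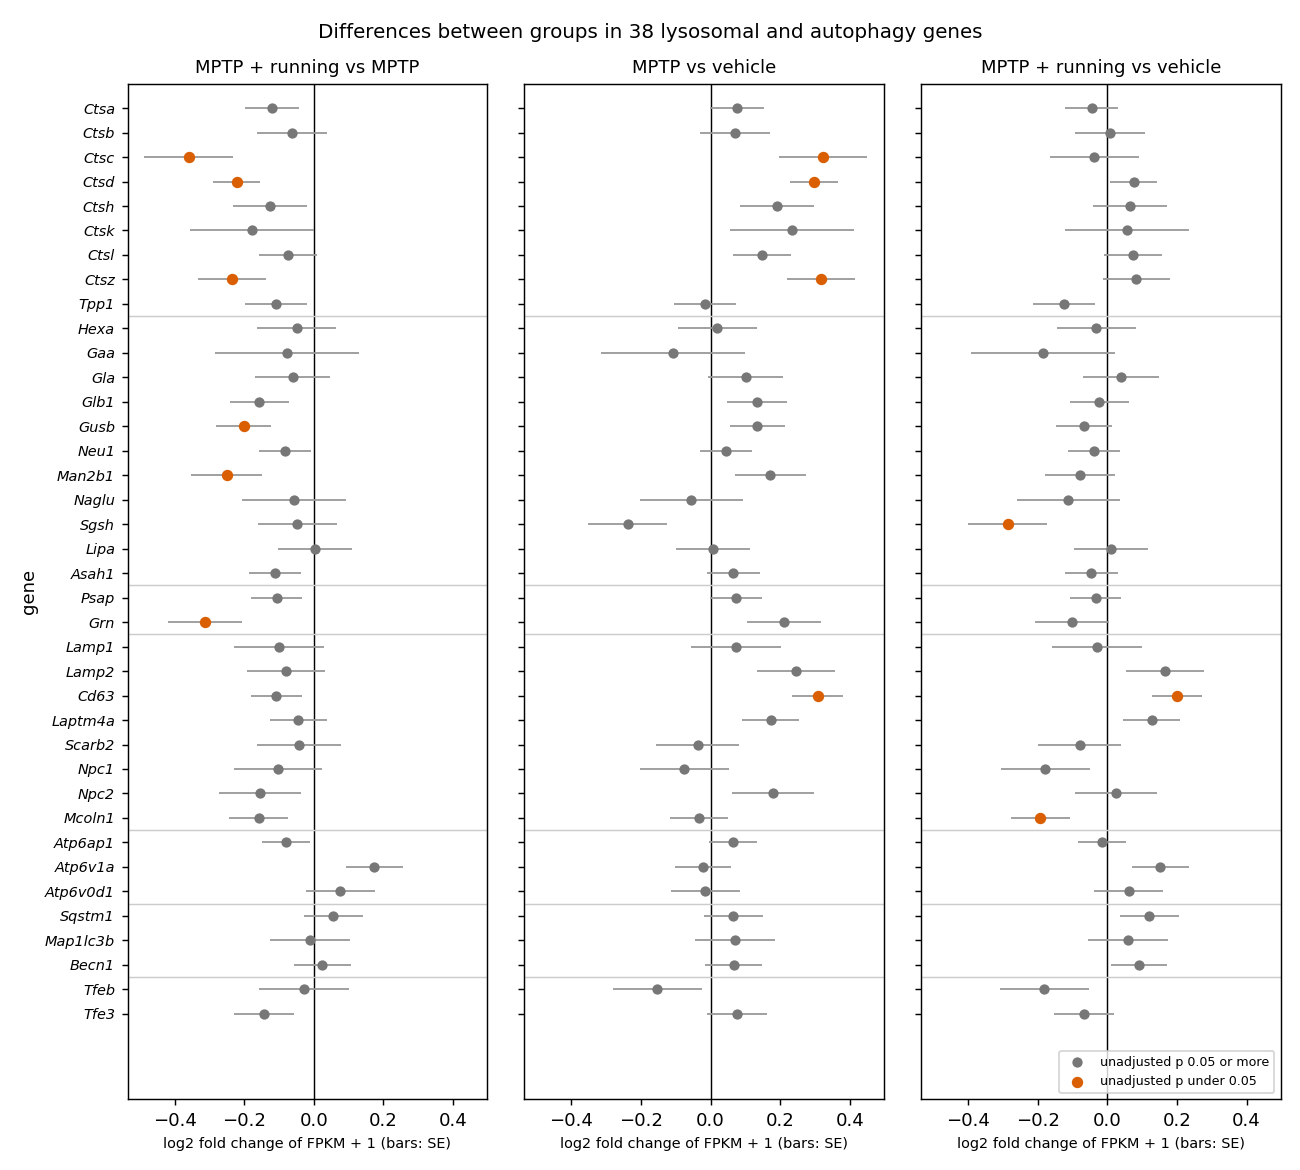
Points give the log2 fold change of FPKM + 1 of each of the 38 genes in the 3 comparisons, with bars of 1 SE and orange for an unadjusted p under 0.05. Points lie below 0 in 33 genes for running over MPTP and above 0 in 28 genes for MPTP over vehicle, and none of the 38 passed after adjustment over all genes tested.

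Running mice were last compared with vehicle mice, which shares libraries with both comparisons above. The members' log2 fold changes lay between −0.29 (Sgsh) and 0.20 (Cd63). None passed the test (smallest limma adjusted p = 0.753), and none of all genes did (0%). At an unadjusted p under 0.05 there were 3 members, Cd63 higher and Sgsh and Mcoln1 lower in running mice, against 6.54% of all genes (3.12% higher and 3.43% lower). In 4 members (Ctsd, Cd63, Laptm4a and Atp6v1a) the lowest running library was above the highest vehicle library, and in 1 (Sgsh) the order was reversed, against 6.38% and 9.2% of all genes. Of the 38 members 17 had a log2 fold change above 0 and 21 below 0, against 44.7% and 55.3% of all genes, and the median was −0.03, against −0.02 over all genes. After rescaling, 27 of 38 were below 0 with a median of −0.09, against −0.08 over all genes. The count of 3 was 0 without running replicate 1 and 1 without running replicate 3 or vehicle replicate 2.

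Cd63 averaged 11.2 ± 0.308 FPKM in running mice and 9.60 ± 0.613 FPKM in vehicle mice (SD, n = 3 each), a log2 fold change of 0.20 (SE 0.07, unadjusted p = 0.0235, limma adjusted p = 0.753). Sgsh averaged 2.01 ± 0.311 FPKM in running mice and 2.66 ± 0.233 FPKM in vehicle mice, a log2 fold change of −0.29 (SE 0.11, unadjusted p = 0.0343, limma adjusted p = 0.753). For Sgsh, running and MPTP mice thus both stood below vehicle, while for Cd63 both stood above it. Mcoln1, which releases calcium from the lysosome, averaged 6.12 ± 0.444 FPKM in running mice and 7.13 ± 0.583 FPKM in vehicle mice with overlapping groups.

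Other genes of the same pathway, 119 in 5 lists of which 117 were tested, are given as counts; none passed the test in any of the 3 comparisons with all libraries. Counts after rescaling are read against the median of all genes, which in MPTP over vehicle was −0.05 after rescaling and −0.006 before it. Of 28 other lysosomal hydrolases, 22 had a log2 fold change of MPTP over vehicle above 0 (median 0.09; 19 after rescaling) and 24 a log2 fold change of running over MPTP below 0 (median −0.11). Ctss, the cathepsin of antigen-presenting cells, had the smallest p of them, at 57.9, 58.1 and 56.7 FPKM in running mice, 59.9, 86.6 and 78.1 FPKM in MPTP mice and 36.7, 43.1 and 47.6 FPKM in vehicle mice. The 3 groups did not overlap, and the log2 fold change of MPTP over vehicle was 0.80 (SE 0.14, unadjusted p = 0.000393, limma adjusted p = 0.393, and 0.0312 without MPTP replicate 1). Fuca1, the α-fucosidase, averaged 10.1 ± 0.526 FPKM in MPTP mice and 8.36 ± 0.503 FPKM in vehicle mice (SD, n = 3 each). Dnase2a, the acid nuclease, stood at 0.614, 0.587 and 0.610 FPKM in running mice, 2.44, 0.843 and 2.51 FPKM in MPTP mice and 1.40, 1.52 and 1.39 FPKM in vehicle mice, so the running libraries were the lowest 3 of the 9. Running over MPTP gave −0.81 on the log2 scale (SE 0.22, unadjusted p = 0.00533, limma adjusted p = 0.99988, and 0.0211 without MPTP replicate 2).

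Of 23 other genes of lysosomal membranes and sorting, 10 were above 0 in MPTP over vehicle and 19 below 0 in running over MPTP. Gnptg, a subunit of the enzyme that tags hydrolases for the lysosome, averaged 27.6 ± 0.789 FPKM in MPTP mice and 25.3 ± 1.06 FPKM in vehicle mice. Lamp5, a neuronal relative of Lamp1, averaged 54.4 ± 43.6 FPKM in MPTP mice and 27.7 ± 19.9 FPKM in vehicle mice, and Cln3 averaged 1.07 ± 0.119 FPKM in running mice and 1.33 ± 0.110 FPKM in MPTP mice (SD, n = 3 each).

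Of 15 other proton pump genes, 11 were above 0 in running over MPTP (9 under quantile normalization), 10 in MPTP over vehicle and 13 in running over vehicle (median 0.13; 9 of 15 with a median of 0.06 after rescaling). Atp6v1g1 averaged 62.6 ± 5.95 FPKM in running mice, 62.8 ± 7.84 FPKM in MPTP mice and 53.1 ± 2.21 FPKM in vehicle mice, and Atp6v1d averaged 48.8 ± 0.606 FPKM in running mice, 47.1 ± 6.14 FPKM in MPTP mice and 42.3 ± 1.16 FPKM in vehicle mice. Atp6v0a2 had 11.1 ± 1.62 FPKM in running mice and 8.78 ± 3.15 FPKM in MPTP mice. Whether the pump genes differ from the enzymes was not tested.

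Of 32 other autophagy genes, 20 were above 0 in running over MPTP and 18 in MPTP over vehicle. After rescaling 10 were above 0 in MPTP over vehicle, with a median of −0.05, the same to 2 decimals as that of all genes. Gabarap, a relative of Map1lc3b, averaged 59.8 ± 4.91 FPKM in MPTP mice and 53.2 ± 1.88 FPKM in vehicle mice. Atg14, which directs the lipid kinase to autophagosomes, averaged 4.47 ± 0.307 FPKM in running mice, 3.99 ± 0.0394 FPKM in MPTP mice and 4.48 ± 0.302 FPKM in vehicle mice. Of 19 tested regulators, 8 were above 0 in running over MPTP and 10 in MPTP over vehicle (6 after rescaling). Mtor, the kinase that holds autophagy back when nutrients are plentiful, averaged 10.47 ± 1.75 FPKM in MPTP mice and 12.2 ± 0.871 FPKM in vehicle mice. Lamtor1, its anchor on the lysosome, averaged 16.2 ± 1.71 FPKM in MPTP mice and 14.6 ± 0.463 FPKM in vehicle mice. Fnip1, the folliculin partner, averaged 7.56 ± 0.443 FPKM in running mice and 6.52 ± 0.575 FPKM in MPTP mice.

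**Figure D4:**
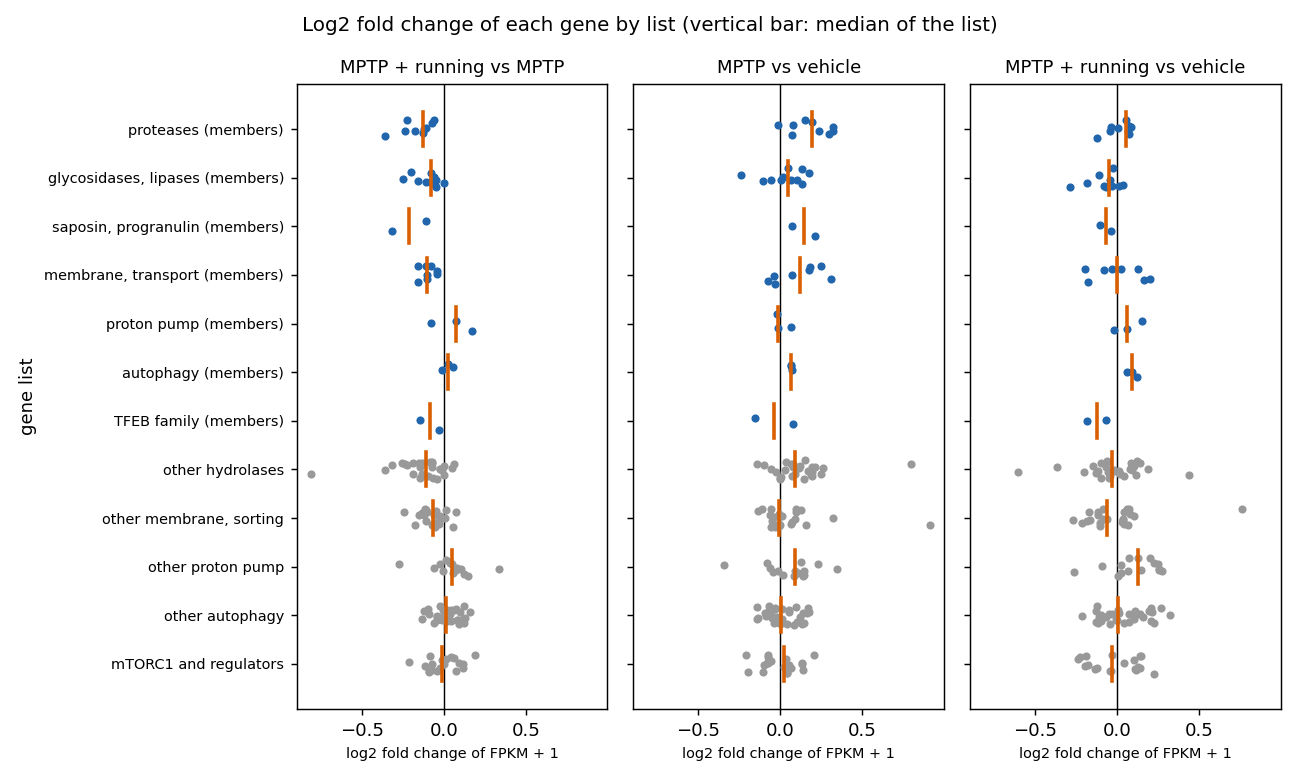
Points give the log2 fold change of FPKM + 1 of each gene, by list, in the 3 comparisons, with the median of each list as an orange bar. The protease medians are −0.13 for running over MPTP and 0.19 for MPTP over vehicle, while the medians of the other autophagy genes are 0.01 in each of the 3 comparisons.

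Members with the core TCACGTG in the promoter were set beside those without it. The 11 with TCACGTG had a median log2 fold change of −0.01 in MPTP over vehicle, with 5 above and 6 below 0, and the 22 without it had 0.10, with 19 above and 3 below. For running over MPTP the medians were −0.08 (9 of 11 below 0) and −0.10 (20 of 22 below 0). These are descriptions of lists chosen with values known, and the difference was not tested. Ctsd and Sgsh, which both carry the core, stood on opposite sides in MPTP over vehicle.

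Libraries of a group also differed in markers of other cell types. The 6 oligodendrocyte markers summed to 1070, 1904 and 1190 FPKM in running mice, 1622, 1270 and 1076 FPKM in MPTP mice and 1804, 1276 and 1145 FPKM in vehicle mice, so the highest libraries were running replicate 2, MPTP replicate 1 and vehicle replicate 1. The members Lipa, Lamp1, Lamp2, Npc1, Npc2 and Tfeb had their highest value of each group in these same libraries, 15.8% of members against 10.4% of all genes tested, which is near the background and is given as a description. The neuronal and the astrocyte markers were both highest in replicate 2 of each group, as were the members Ctsb, Gla and Mcoln1 (7.89% of members, against 3.55% of all genes). Npc2, which lifts cholesterol out of the lysosome lumen, stood at 11.96, 15.1 and 12.2 FPKM in running mice, 15.6, 14.7 and 13.6 FPKM in MPTP mice and 14.6, 11.8 and 12.1 FPKM in vehicle mice. No oligodendrocyte marker was at 0 in any library, and the part of these cell types in the values of the members named here was not tested.

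Markers of microglia and of the interferon response are given beside the cathepsins, since both stood higher in MPTP mice on average. The 10 microglial markers summed to 133, 115 and 139 FPKM in running mice, 123, 165 and 141 FPKM in MPTP mice and 109, 124 and 134 FPKM in vehicle mice, and none was at 0 in any library. Of them 9 of 10 had a log2 fold change above 0 in MPTP over vehicle (median 0.16) and 9 of 10 below 0 in running over MPTP (median −0.12). The 1 marker that went the other way had −0.41 in the first comparison, and the 1 in the second had 0.66. Each was the largest change of a microglial marker in its comparison. C1qa, a complement component made by microglia, averaged 28.6 ± 0.820 FPKM in running mice, 36.3 ± 5.60 FPKM in MPTP mice and 27.1 ± 3.06 FPKM in vehicle mice (SD, n = 3 each). C1qa does not stand for the list. The log2 fold changes of the 10 markers ran from −0.41 to 0.40 in MPTP over vehicle and from −0.48 to 0.66 in running over MPTP. The 8 interferon response genes summed to 41.3 to 44.6 FPKM in running mice, 47.2 to 106 FPKM in MPTP mice and 27.7 to 28.5 FPKM in vehicle mice, with 8 of 8 above 0 in MPTP over vehicle and 8 of 8 below 0 in running over MPTP. The 7 choroid plexus genes whose sums were given above had the same counts, 7 of 7 in each. The 6 endothelial markers summed to 44.2 to 57.4 FPKM in running mice, 60.7 to 65.0 FPKM in MPTP mice and 52.7 to 57.6 FPKM in vehicle mice. Of them 4 of 6 were above 0 in MPTP over vehicle, 6 of 6 below 0 in running over MPTP and 5 of 6 below 0 in running over vehicle. The microglial sum was highest in running replicate 3, MPTP replicate 2 and vehicle replicate 3. Ctsa and Ctsd had their highest value of each group in these same libraries (5.26% of members, against 4.05% of all genes). For Ctsd the vehicle libraries were nearly level, at 140.3 to 142.4 FPKM. The part of microglia, vessels, the interferon response and choroid plexus tissue in the values of Ctsd, Ctsz, Ctsc, Cd63 and Grn was not tested.

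**Figure D5:**
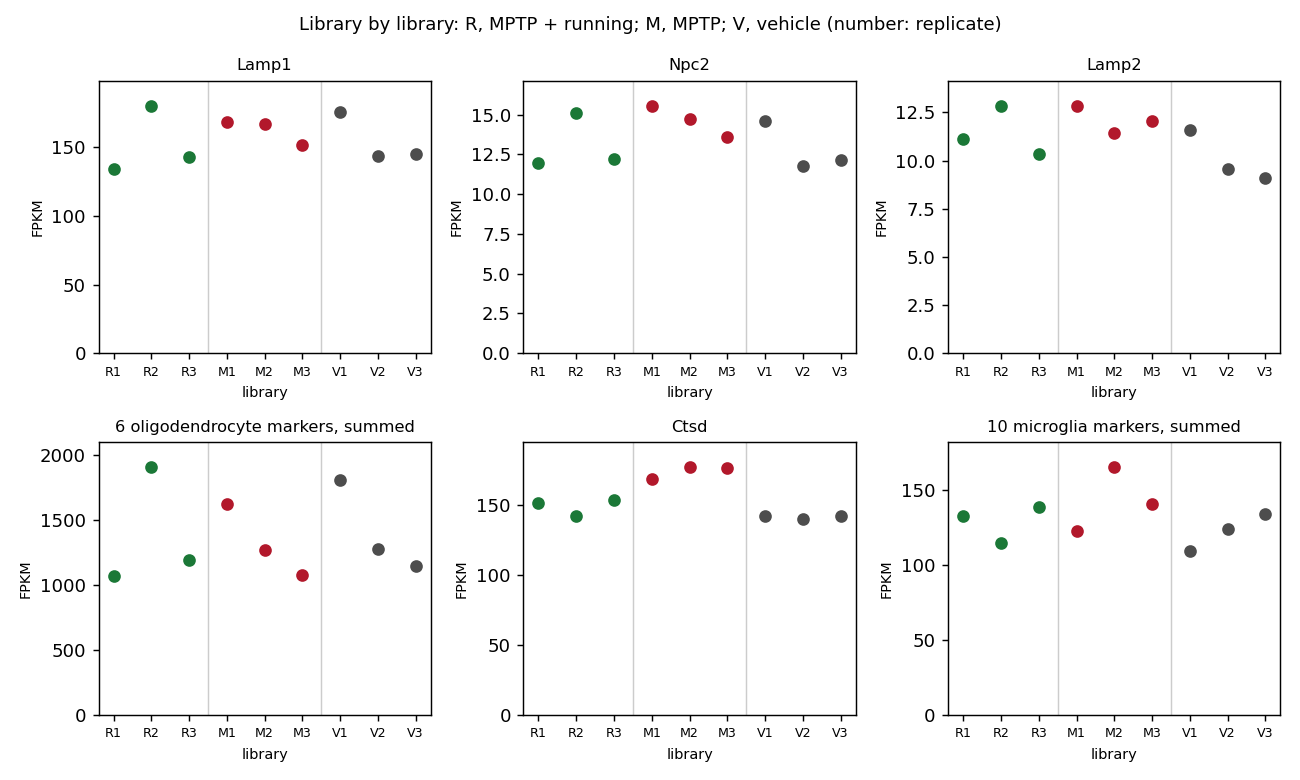
Points give FPKM by library (R, MPTP + running; M, MPTP; V, vehicle) of Lamp1, Npc2, Lamp2 and Ctsd and the summed FPKM of 6 oligodendrocyte and 10 microglial markers, with axes starting at 0. Lamp1, Npc2 and Lamp2 are highest in R2, M1 and V1, where the oligodendrocyte sum is highest, while Ctsd is highest in the 3 MPTP libraries. Lamp1, Npc2 and Lamp2 were taken from the members with this match, which are 15.8% of members, against 10.4% of all genes tested.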

How the data were processed

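RNA from 9 samples labelled brain tissue (substantia nigra per the series' design text) was enriched for mRNA on beads and sequenced on an Illumina NovaSeq6000, per the labels. The authors deposited 1 table of FPKM values, used as they stand; the submitters' processing notes name bcl2fastq, HTSeq, DESeq2 and the build GRCm38. For the aligner, the program that computed FPKM and the strandedness, the sources used here give nothing. Symbols and positions came from GENCODE M21 (55154 of 55335 genes matched, 181 not), promoter windows from RefSeq. Exons of some members overlap those of other genes, so reads may be shared: Ctsa with Pltp (495 bases), Ctsb with Fdft1 (774) and Becn1 with Cntd1 (3104) lie on opposite strands.

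Genes averaging 0.5 FPKM or more were tested on log2(FPKM + 1) with limma 3.58.1 in R 4.3.3 (variance trend on the mean), all 9 libraries in 1 fit with 3 contrasts and no replicate block, two-sided, with Benjamini-Hochberg adjustment over the 15997 genes. Fold changes on this scale understate differences of low genes. The labels do not say that each library is 1 mouse, so a p measures spread among these libraries, which may be technical. The script was tested on simulated data. Tables and figures used Python 3.11.15, pandas 2.3.3, numpy 2.4.6 and matplotlib 3.10.9. Depth was estimated from steps of low values, of which 38.3% to 40.3% lay within 2% of a whole step, so whole reads were not recovered.

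The members and lists were chosen with earlier results of these data known. Values in every library are given for the 6 members with the smallest p in MPTP over vehicle, 4 in running over MPTP, 2 in running over vehicle and the 4 most abundant. Of each list of other pathway genes, 2 and 1 with the smallest p of the first 2 comparisons were named. Same-numbered libraries of MPTP and vehicle mice deviated together from their group means (correlations 0.251, 0.330 and 0.105). Differently numbered libraries were not compared, so these values cannot show that the numbers pair libraries, and the labels give the numbers no meaning. Running libraries gave −0.339, −0.134 and 0.247 with MPTP libraries and −0.265, 0.00692 and 0.241 with vehicle libraries. The main fit took no numbers as pairs. Alternatives used another pseudocount, low-value filter, scaling or variance model, array weights, the replicate block, or fewer libraries.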

Additional observations from a re-analysis of the deposited data

How the results depend on the processing

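No member passed the threshold under any alternative or without any 1 library, in any of the 3 comparisons. In MPTP over vehicle, 2 genes of all tested passed, 3 with the replicate block, 0 with the 2 groups alone and 0 with the replicate block in the 2 groups alone, a fit chosen after seeing the data. The block changed no call of a member, and 4 members with all libraries and 6 in the 2 groups alone had an unadjusted p under 0.05. In running over MPTP, 0 genes passed, against 3 without a filter on low values, 1 at a mean of at least 5 FPKM and 1 with array weights. With values rescaled to the same sum outside the mitochondrial genome, the median of the members was 0.0097 in MPTP over vehicle and −0.087 in running over vehicle, while that of all genes was −0.055 and −0.076. Quantile normalization turned the sign of Psap (−0.124) and Sqstm1 (−0.0014) in MPTP over vehicle. The cause of these shifts was not tested.

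Leaving out each library in turn gave 0 to 32 genes past the threshold in MPTP over vehicle (32 without MPTP replicate 1), 3 to 7 members at an unadjusted p under 0.05 and medians of 0.061 to 0.097. In running over MPTP it gave 0 to 25 genes (25 without MPTP replicate 1), 2 to 7 members and medians of −0.131 to −0.067. In running over vehicle it gave 0 to 2 genes and 0 to 4 members. Of the other genes named, Ctss passed without MPTP replicate 1 and Dnase2a without MPTP replicate 2. With 3 libraries per group, differences near the median SE of a member, 0.10 on the log2 scale, could not be called. The largest of the members, 0.32 in MPTP over vehicle and −0.36 in running over MPTP (both Ctsc), did not pass either. Neither did Ctss in MPTP over vehicle with all libraries, at 0.80 (limma adjusted p = 0.393).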
